A study of Mus musculus with 6 samples.

Results

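Nonclassical patrolling monocytes of the mouse lung were picked out of single-cell RNA sequencing data barcode by barcode, from the genes each barcode held. A barcode was kept if it had at least 500 UMIs (unique molecular identifiers, each 1 counted RNA molecule), at least 300 genes and under 20% mitochondrial UMIs. A kept barcode was a member if at least 2 of the 4 marker genes Treml4, Adgre4, Cd300e and Ace were detected. It was left out if it held 4 or more UMIs of C1qa, C1qb and C1qc together, 2 or more of the alveolar macrophage genes Marco, Ctsk, Siglecf, Ear1 and Plet1, or any UMI of Cd3e (T cells), Cd79a (B cells) or Cdh5 (endothelium). The rule found 1582 members among 76800 kept barcodes: 261 in control_1, 152 in control_2, 91 in LPS_1, 910 in LPS_2, 125 in SLC_1 and 43 in SLC_2. Because the members were chosen on their own counts, the levels of the rule genes, and of every other gene in members against the remaining barcodes, are given as descriptions without a test.

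The lungs came from male C57BL/6J mice aged 12 weeks that were assigned to groups at random, and each library is a separate mouse. The control mice received PBS, the LPS mice received lipopolysaccharide (LPS, a bacterial cell wall component) at 1 mg/kg, and the third group, called SLC here after the label SLC-Gq, received the same LPS together with 7 rounds of SLC activation. In the title of the series stand a brainstem region, the subcoeruleus nucleus, and the sympathetic nerve, and all lungs were taken on day 3. The sources used here do not state how the 7 rounds were timed around LPS. Mice with the activation and no LPS are not analysed here, so the activation can be compared only on top of LPS. Each group has 2 mice, and all 3 groups share 1 strain, sex and age.

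Nonclassical monocytes are blood monocytes that crawl along the inside of small vessels, also against the flow, and survey the endothelium. They arise from Ly6C-high classical monocytes through a step that needs the nuclear receptor Nr4a1, and they carry little Ly6C and CCR2 but much CX3CR1, the integrin LFA-1 (whose alpha chain is Itgal), CD43 (Spn) and the activating Fc receptor Fcgr4. In the lung, which holds a large pool of marginated leukocytes, they are known for clearing debris and tumour cells from the capillary wall and for taking up immune complexes. LPS is sensed through TLR4, and interferon gamma made by lymphocytes and NK cells drives the guanylate-binding proteins (GBP) and immunity-related GTPases (IRG) in such cells.

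The 6 libraries held 165547 to 253281 barcodes and 31589233 to 48641470 UMIs, and 11608 to 13710 barcodes per library were kept, with median depths of 1134 to 2606 UMIs. Members had median depths of 2241, 2000.5, 2651, 3658, 3600 and 1686 UMIs in control_1, control_2, LPS_1, LPS_2, SLC_1 and SLC_2, the order in which 6 values are given throughout. Summed over members, the libraries held 691432, 333308, 273846, 3828508, 580432 and 97362 UMIs, so that SLC_2 carried the least information and LPS_2 by far the most. A level is given as CPM, the UMIs of a gene scaled to 1000000 UMIs of all members of that library. At most 6 kept barcodes were shared between any pair of libraries.

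A pair of libraries stood apart and are named beside the results they touch. LPS_2 held 910 of the 1582 members. In SLC_1 the members went against their name in several genes: only 17.6% had 3 or 4 of the markers, against 37.4% to 68.1% in the other libraries, and Ly6c2 stood at 3776 CPM, against 4062 CPM in the Ly6c2-positive monocytes of the same lung. Arg1, which encodes arginase, stood at 355 CPM in SLC_1 and at 0 to 0.784 CPM in the 5 other libraries. Over log-transformed CPM of all tested genes the correlation of SLC_1 with its group partner SLC_2 was 0.754, below that of SLC_1 with LPS_1, 0.864, while the controls correlated at 0.935 and the LPS pair at 0.858. SLC_2, the shallowest library, correlated at 0.754 to 0.811 with every other library, and SLC_1 at 0.805 and 0.797 with the controls. The barcodes of SLC_1 are therefore called members by the rule and not taken as patrolling monocytes throughout.

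RNA of other cells was present among the members. Barcodes with 10 to 100 UMIs, which hold mainly RNA free in the suspension, gave a free RNA profile. Members with 5 or more UMIs of Col1a1, Col1a2 and Col3a1 together were left out of the estimate that follows. In the other members, 18 genes of fibroblasts and epithelium stood at 20.7%, 25.9%, 17.6%, 9.99%, 14.7% and 21.9% of their level in that profile. Those percentages, applied to each gene's free RNA level, give the share of the gene's level in the higher group that free RNA of that amount would supply, and this share is printed beside the genes that passed and some others. The 11 neutrophil markers summed to 5441, 2010, 4108, 3140, 2245 and 4581 CPM in members, led by S100a8, S100a9, Retnlg and Il1r2, and neutrophils made up 22.2% to 27.7% of kept barcodes in control lungs and 56.3% to 74.4% in the other lungs. Members with 2 or more of the neutrophil genes Retnlg, Cxcr2, Mmp9 and Il1r2 made up 21.1%, 12.5%, 36.3%, 10.7%, 32.8% and 23.3% of members. Whether these are doublets or carry free RNA was not tested. The 4 T cell markers summed to 2.61 to 25.6 CPM and the 4 B cell markers to 0 to 10.1 CPM, with the rule holding Cd3e and Cd79a at 0.

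Genes that the rule did not use but that mark nonclassical monocytes were detected in members of all 6 libraries, least often in SLC_1 for most of them. Itgal, the LFA-1 alpha chain, was detected in 95.02%, 96.7%, 94.5%, 98.1%, 81.6% and 86.05% of members, against 24.2% to 44.3% of B cells, which should not be read as free of it because lymphocytes also use LFA-1. Fcgr4, the activating receptor for IgG complexes, was detected in 50.2%, 49.3%, 65.9%, 82.8%, 25.6% and 67.4% of members. In B cells, which lack Fcgr4, it was detected in 1.63%, 1.16%, 5.53%, 4.42%, 4.84% and 18.1%, so the detection in members lay above that background in all 6 libraries. Spn, which encodes CD43, was detected in 20.8% to 54.7% of members, lowest in SLC_1 and highest in LPS_2. The B cells numbered 62 to 981 per library and were shallower than the members, with median depths of 1073 to 1639 UMIs.

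Nr4a1, the receptor that nonclassical monocytes need, was detected in 89.7%, 78.3%, 82.4%, 82.1%, 77.6% and 58.1% of members, and in 35.8% to 63.0% of B cells, where it is an activation gene. Pou2f2, a transcription factor high in these cells, was detected in 50.5% to 58.6% of members outside SLC_1 and in 32.8% in SLC_1. Cx3cr1, the fractalkine receptor, was detected in 29.1%, 31.6%, 34.1%, 19.5%, 15.2% and 20.9%, against 0.52% to 2.77% of B cells. Ly6c2, which marks the classical cells, was detected in 11.5% and 15.1% of control members and in 33.5% to 67.4% of the members of the 4 LPS-treated lungs. In SLC_2, 56.4% of B cells also held a Ly6c2 UMI, so the 67.4% there is close to background. At full depth the members stood further above B cells in LPS_1 (53.9% against 32.4%), LPS_2 (33.5% against 10.9%) and SLC_1 (52.0% against 17.7%).

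With each member thinned to 1000 UMIs, which left out 21 control, 13 LPS and 11 SLC members of lower depth, the same genes kept most of these orders. Fcgr4 was then detected in 29.8%, 36.5%, 40.2%, 52.05%, 16.8% and 39.5% of members, still lowest in SLC_1 and highest in LPS_2. Ly6c2 was detected in 5.49%, 5.84%, 32.2%, 19.5%, 44.5% and 47.4%, and Itgal in 81.6%, 87.6%, 75.9%, 87.4%, 43.7% and 76.3%. The thinned 32.2% for Ly6c2 in LPS_1 was no higher than the 32.4% of its B cells, which were not thinned. Nor was the 47.4% in SLC_2 higher than the 56.4% of B cells there. Thinned LPS_2 and SLC_1 members stayed above the 10.9% and 17.7% of their B cells. Cx3cr1 was detected in 0.84% of the 119 thinned SLC_1 members and in 7.33% to 21.1% of the thinned members of the other libraries. Among the 62 B cells of SLC_1, which were not thinned, it was detected in 1.61%, and these are too few cells to rank.

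**Figure D1:**
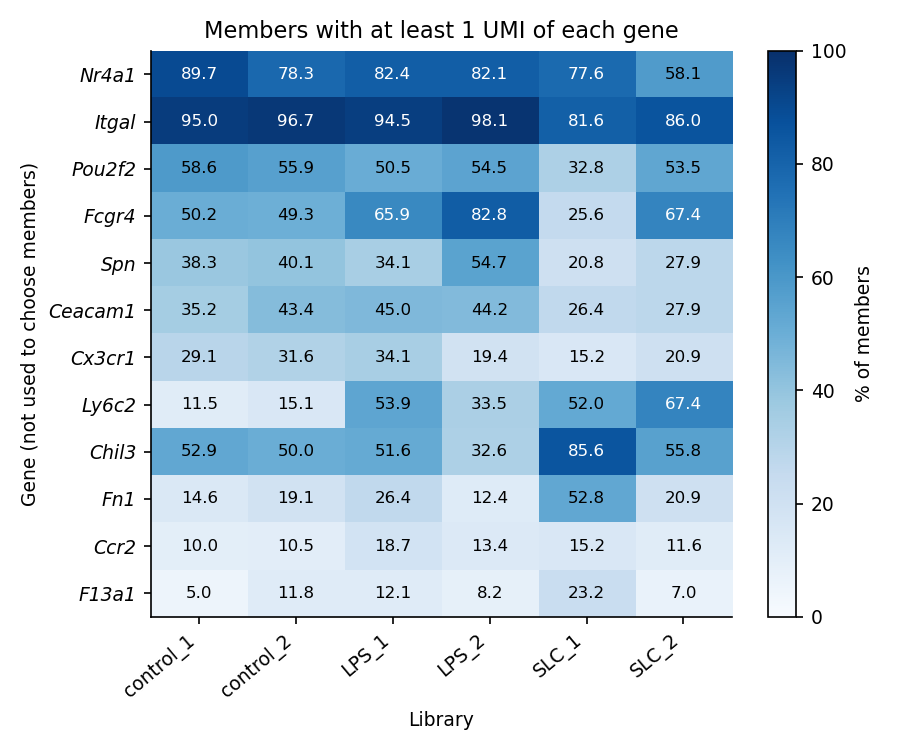
Percent of members with at least 1 UMI of each of 12 genes that the rule did not use (rows) in each of the 6 libraries (columns), with darker cells for higher percentages. Itgal and Nr4a1 stay high, Ly6c2 is lowest in the 2 control libraries, and SLC_1 stands out with the lowest Fcgr4 (25.6%) and the highest Fn1 (52.8%).

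Beyond the marker list, the genes that most set members apart from the other kept barcodes named other parts of this cell's equipment. Spic, a transcription factor known from red pulp macrophages, led with a median log2 fold of 3.39 over the 6 libraries (1.52 to 4.60) and stood at 272, 297, 94.9, 1105, 36.2 and 144 CPM in members. Serpinb10, a protease inhibitor of myeloid cells, followed with a median log2 fold of 3.05, then Grk3, a kinase that shuts off G protein-coupled receptors, with 2.92. Stap1, an adaptor protein, had 2.79, Ripk2, the kinase below the NOD receptors, had 2.46, and Adrb1, the beta-1 adrenergic receptor, had 1.97. These folds describe the barcodes that the rule chose.

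The 4 rule genes themselves varied among libraries. Treml4, a receptor that amplifies TLR7 signals, stood at 476, 576, 409, 872, 215 and 596 CPM, and Ace, the angiotensin-converting enzyme, at 534, 588, 380, 229, 126 and 308 CPM. Cd300e, an activating immunoglobulin-like receptor, was lowest in SLC_1 at 70.6 CPM, against 296 to 552 CPM in the other libraries. Adgre4, an adhesion G protein-coupled receptor also called FIRE, ranged from 284 CPM in SLC_1 to 774 CPM in control_2.

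The number of markers a barcode held went with the level of some other genes of the cell type, and not of all. Just outside the rule, barcodes with 1 marker numbered 892 to 2096 per library, and their Spn level was 10.8 to 20.6 CPM. Just inside it, members with 2 markers had Spn at 135, 196, 98.0, 196, 42.9 and 70.6 CPM, and members with 3 or 4 markers had 273, 336, 375, 328, 166 and 369 CPM. Fcgr4 stood at 237, 266, 351, 578, 73.5 and 494 CPM at 2 markers and 498, 552, 1075, 992, 221 and 1081 CPM at 3 or 4. With 1 marker it stood at 31.2, 26.2, 281, 408, 77.0 and 401 CPM, so in SLC_1 it was not lower than with 2. Nr4a1 was higher with 1 marker than with 2 in control_2 (1096 against 853 CPM), LPS_1 (961 against 712 CPM) and SLC_2 (602 against 512 CPM). In control_1, LPS_2 and SLC_1 it was lower with 1 marker.

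Ly6c2 went the other way, at 220, 371, 1321, 1741, 4015 and 2065 CPM in members with 2 markers and 167, 52.5, 288, 429, 2486 and 442 CPM in those with 3 or 4, against 2797 to 6404 CPM in Ly6c2-positive monocytes. Fn1, fibronectin, which classical monocytes carry, was also lower with 3 or 4 markers (81.9 to 873 CPM) than with 2 (259 to 2664 CPM) in every library. Saa3, an acute-phase gene, stood at 1904 CPM with 2 markers and 438 CPM with 3 or 4 in LPS_1, and at 4625 and 2873 CPM in SLC_1. Marker number uses the same counts that chose the members, so these orders are a description of how mixed the set is, and results are also given for the members with at least 3 markers.

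Members made up 2.06% (exact binomial 95% interval 1.82% to 2.32%), 1.22% (1.04% to 1.43%), 0.664% (0.535% to 0.814%), 7.84% (7.36% to 8.34%), 0.931% (0.776% to 1.11%) and 0.332% (0.241% to 0.447%) of kept barcodes. The intervals cover counting error only. Both SLC lungs lay below both control lungs, while the 2 LPS lungs lay on either side of the controls, 1 below and 1 far above. Group means were 1.64% ± 0.593 (SD, n = 2) in control, 4.25% ± 5.07 (SD, n = 2) in LPS and 0.632% ± 0.423 (SD, n = 2) in SLC lungs.

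With 2 mice a group the test of the share could not have reached a p under 0.05. The exact two-sided permutation p was 1 for LPS against control, 0.33 for SLC against control and 0.667 for SLC against LPS, and 0.33 is the smallest p that 2 against 2 mice can give. LPS minus control was 2.61 percentage points with LPS_2 and -0.976 points without it, so that 1 mouse sets its direction. SLC minus control was -1.01 points, between -0.589 and -1.43 when each library was left out in turn. In a share of kept barcodes, fewer cells of a type and less RNA per cell cannot be told apart, because a cell with fewer UMIs shows fewer of the markers.

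Depth and the other cells enter this share. Thinned to 500 UMIs a barcode, the shares were 0.616%, 0.474%, 0.117%, 2.16%, 0.119% and 0.085%, which keeps the order of LPS_2 above the controls and the 3 other treated lungs below them. Among kept barcodes that were not neutrophils the members made up 1.87%, 1.19%, 0.845%, 10.4%, 0.900% and 0.559% when neutrophil-marked members were also left out. With at least 3 markers the shares were 1.18%, 0.667%, 0.248%, 5.34%, 0.164% and 0.147%.

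**Figure D2:**
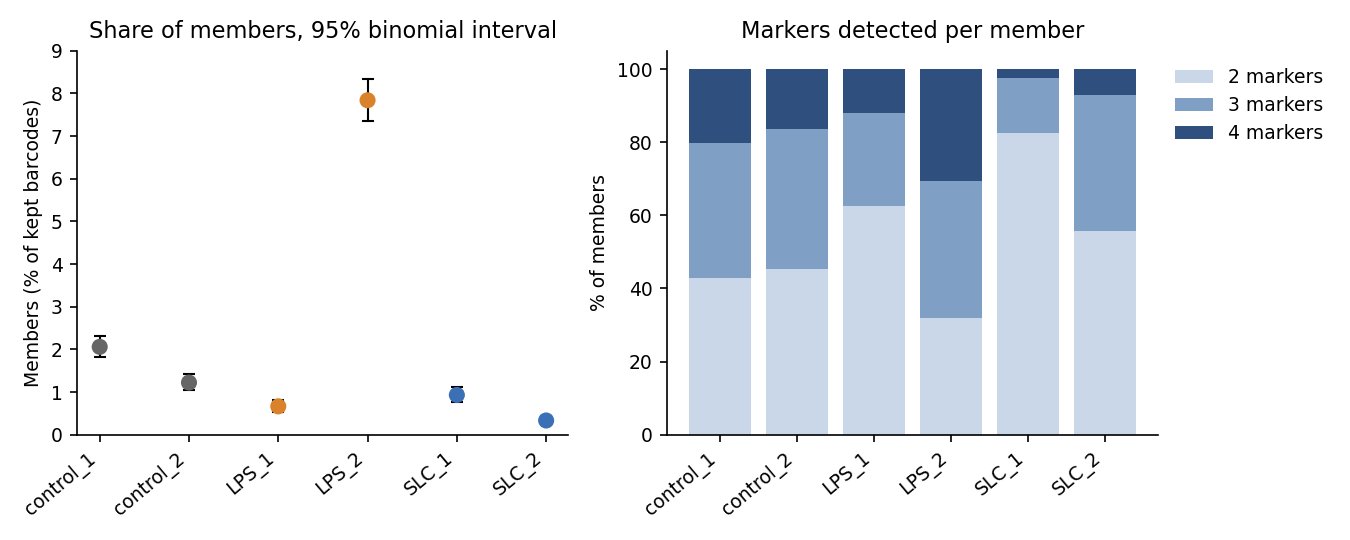
Left, members as a percent of kept barcodes in each library, with exact binomial 95% intervals, in grey for control, orange for LPS and blue for SLC. Right, the percent of members with 2, 3 or 4 of the 4 markers; LPS_2 has the largest share of members (7.84%), and SLC_1 has the fewest members with 3 or 4 markers (17.6%).

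LPS against control asks what the members carried on day 3 after LPS alone. Summed UMIs of members were compared between libraries with edgeR's quasi-likelihood test over 5729 genes, with Benjamini-Hochberg adjustment, and a gene passed at an adjusted p under 0.05. Of these genes 13 passed (0.227%): 5 were higher after LPS (0.0873%) and 8 lower (0.14%). The 5 that rose were the interferon-induced GTPase genes Gbp6, Gbp7 and Irgm1, the NAD-consuming ectoenzyme Cd38, and Aoah, which encodes the lipase that removes acyl chains from LPS and so inactivates it.

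Aoah stood at 14.5 and 18.0 CPM in control members and at 164 and 126 CPM in LPS members, a log2 fold change of 3.28 (SE 0.40, edgeR adjusted p = 0.024). Cd38 stood at 11.6 and 9.0 CPM in control and at 135 and 371 CPM in LPS members, a log2 fold change of 4.75 (SE 0.64, edgeR adjusted p = 0.024). For both genes all treated libraries lay far above both controls, and the SLC members held 207 and 185 CPM of Aoah and 299.8 and 216 CPM of Cd38. Free RNA would supply 6.94% of the Cd38 level in LPS members and 39.8% of the Aoah level, and among members with at least 3 markers Aoah had a log2 fold change of 2.49 (edgeR adjusted p = 0.189).

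Gbp7 stood at 30.4 and 24.0 CPM in control members and 245 and 162 CPM in LPS members, a log2 fold change of 2.95 (SE 0.40, edgeR adjusted p = 0.024). Irgm1 stood at 10.1 and 9.0 CPM in control and 157 and 118 CPM in LPS members, a log2 fold change of 3.90 (SE 0.62, edgeR adjusted p = 0.0482). Gbp6 had no UMI in the control members and 51.1 and 129.6 CPM in LPS members, which is at least 30.9-fold higher against a floor of 3 counts over the control group, with an edgeR adjusted p of 0.0385. The proteins of these genes assemble on the membranes of vacuoles and bacteria, and free RNA would supply 12.3% to 14.6% of their LPS levels.

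**Figure D3:**
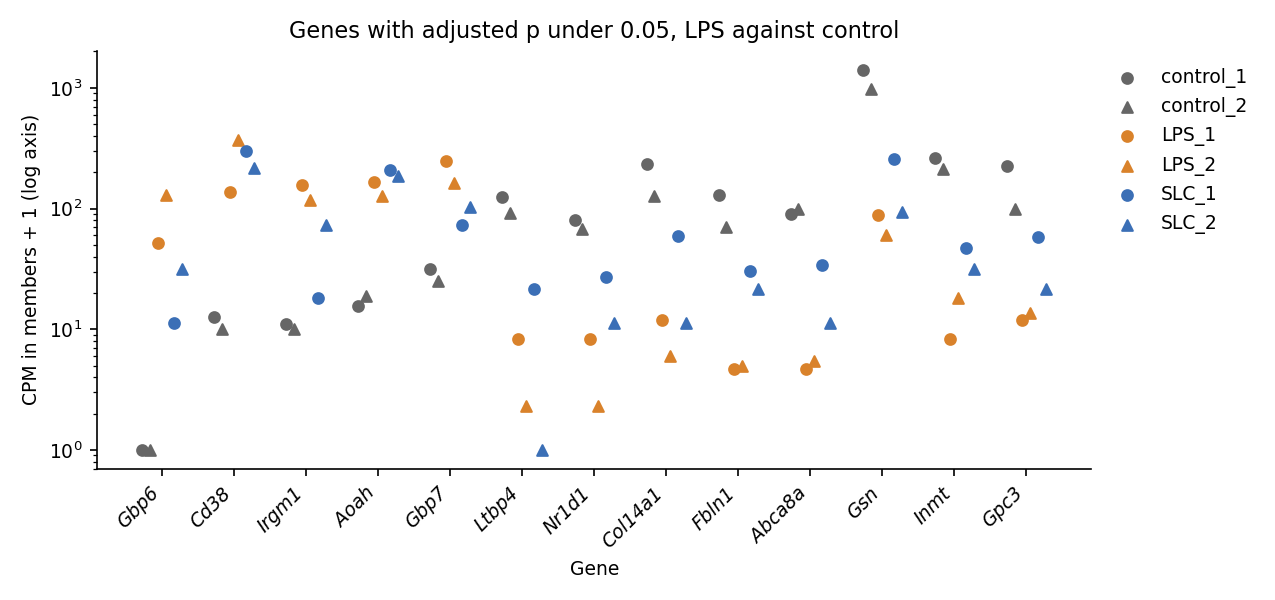
CPM + 1 in members (log axis) of the 13 genes that passed LPS against control, with 1 point per library, circles for replicate 1 and triangles for replicate 2 of control (grey), LPS (orange) and SLC (blue). The 5 genes on the left rose and the 8 on the right fell, and no LPS library overlaps a control library in any of them.

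The 8 genes that fell were genes of the stroma or the clock. Gsn, which encodes the actin-severing protein gelsolin, went from 1410 and 975 CPM to 87.6 and 59.8 CPM, a log2 fold change of -3.94 (SE 0.52, edgeR adjusted p = 0.024). Inmt, an amine N-methyltransferase of lung fibroblasts, went from 259 and 213 CPM to 7.30 and 17.0 CPM, with a log2 fold change of -3.84. Ltbp4, Col14a1, Fbln1, Abca8a and Gpc3, which encode matrix proteins, a lipid transporter and a proteoglycan of mesenchymal cells, had log2 fold changes between -5.53 and -3.58. Nr1d1, the clock repressor REV-ERB alpha, went from 79.6 and 66.0 CPM to 7.30 and 1.31 CPM.

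Fibroblast RNA also differed among these libraries. Whether it accounts for the falls was not tested. The 4 fibroblast markers summed to 2508 and 1026 CPM in control members and to 1088 and 123 CPM in LPS members, so LPS_1 lay above control_2. Of the 4, Col1a1 and Col3a1 overlapped between the groups. Dcn, at 634 and 288 and then 69.4 and 26.4 CPM, did not, nor did Inmt, itself 1 of the 8 genes that fell. The 5 epithelial markers summed to 1037 and 1569 CPM in control members and to 402 and 226 CPM in LPS members. Free RNA would supply 34.4% to 78.1% of the control levels of the 8 genes. A few members with 5 or more UMIs of collagen genes (11, 5, 2, 9, 8 and 0) held 68.0% to 91.5% of all collagen UMIs of their library, in the 5 libraries with any such member. Without them, an alternative added after these values were seen, Inmt had a log2 fold change of -5.29 (edgeR adjusted p = 0.0117) and Gsn -3.82 (adjusted p = 0.0819). Col14a1 then had -6.01 and kept its call (adjusted p = 0.028), and the 5 other genes had log2 fold changes between -5.62 and -4.53 with adjusted p between 0.0819 and 0.0884.

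The calls rest on few libraries. Without LPS_2, 10 genes passed, of which 4 were among the 13, and the 9 others lost their call, with Ltbp4 at -3.76 in place of -5.53 and Nr1d1 at -3.21 in place of -4.96. Without control_1 no gene passed (177 had an unadjusted p under 0.05), and without members that carried 2 or more neutrophil markers none passed either (417 under 0.05). In both settings the 5 genes that had risen kept positive log2 fold changes, with Cd38 at 4.98 and 4.57, and DESeq2 on the same sums called 54 genes, all 13 among them.

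Of 22 gene lists, the interferon gamma list of 21 GBP, IRG and chemokine genes had the highest median log2 fold change. All 15 of its tested genes were higher in both LPS libraries than in both control libraries, where 14.3% of all tested genes were, and that median was 2.95, against 0.01 over all tested genes. Only Gbp6, Gbp7 and Irgm1 of the 15 passed, and 12 had an unadjusted p under 0.05, as had 495 of all tested genes (8.64%). GBP and IRG genes have near-identical neighbours, so reads may be split among them in the authors' counting.

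Gbp2 stood at 216 and 165 CPM in control and 1242 and 1684 CPM in LPS members, with a log2 fold change of 3.07 (edgeR adjusted p = 0.162). Ifi47, another IRG, stood at 18.8 and 30 CPM and then 310 and 169 CPM, and Gbp5, which helps assemble inflammasomes, at 86.8 and 99.0 CPM and then 289 and 568 CPM. Cxcl9, a chemokine that draws activated T cells, had 0 and 3.00 CPM in control and 186 and 30.3 CPM in LPS members. By contrast its relative Cxcl10 was already at 684 and 690 CPM in control members and at 891 and 921 CPM after LPS, a log2 fold change of 0.52. Free RNA would supply 7.29% (Gbp2) to 23.1% (Cxcl9) of the LPS levels of the 15 genes. The median of the list was 2.68 without neutrophil-marked members, 2.98 with at least 3 markers and 3.19 without LPS_2.

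**Figure D4:**
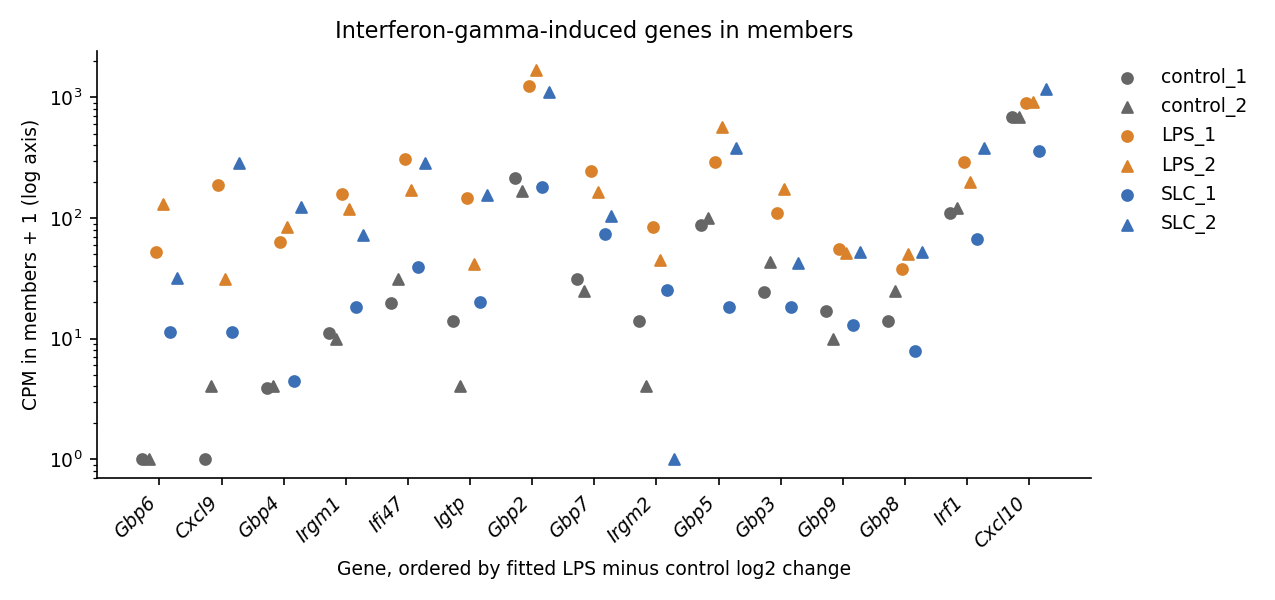
CPM + 1 in members (log axis) for the 15 tested genes of the interferon gamma list, 1 point per library, circles for replicate 1 and triangles for replicate 2 of control (grey), LPS (orange) and SLC (blue). Both LPS points lie above both control points in all 15 genes, while the blue circles of SLC_1 lie far below the blue triangles of SLC_2 in most of them, as for Gbp2 at 181 and 1109 CPM.

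The promoters of 3 of the genes that rose are printed because the interferon list moved together and its factors bind known motifs. RefSeq (GRCm38.p6, while the deposited files use GRCm39) gives 250 bases before and 50 after each start site. The interferon-stimulated response element was searched as GAAANNGAAA and the gamma-activated site as TTCNNNGAA, on both strands, and matches are in capitals. Gbp7 (chr3:142530086-142530385, + strand) has 1 response element 53 bases before the start and 2 gamma-activated sites 106 and 87 bases before it. Irgm1 (chr11:48871371-48871670, - strand) has 2 overlapping response elements, 30 and 24 bases before the start, and Aoah (chr13:20793863-20794162, + strand) has 1 that begins 18 bases after it. Each window spans the upstream promoter and the first transcribed bases.
Gbp7: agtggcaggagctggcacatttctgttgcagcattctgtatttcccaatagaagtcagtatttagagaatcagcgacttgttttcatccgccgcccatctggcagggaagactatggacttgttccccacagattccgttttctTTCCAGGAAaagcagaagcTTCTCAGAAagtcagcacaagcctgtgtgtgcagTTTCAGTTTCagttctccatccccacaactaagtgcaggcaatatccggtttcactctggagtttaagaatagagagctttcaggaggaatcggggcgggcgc
Irgm1: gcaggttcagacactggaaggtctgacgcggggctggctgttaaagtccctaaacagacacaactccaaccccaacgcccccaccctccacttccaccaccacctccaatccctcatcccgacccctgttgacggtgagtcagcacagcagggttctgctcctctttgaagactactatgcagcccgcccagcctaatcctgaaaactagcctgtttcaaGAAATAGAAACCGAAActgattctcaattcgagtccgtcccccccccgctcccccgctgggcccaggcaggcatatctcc
Aoah: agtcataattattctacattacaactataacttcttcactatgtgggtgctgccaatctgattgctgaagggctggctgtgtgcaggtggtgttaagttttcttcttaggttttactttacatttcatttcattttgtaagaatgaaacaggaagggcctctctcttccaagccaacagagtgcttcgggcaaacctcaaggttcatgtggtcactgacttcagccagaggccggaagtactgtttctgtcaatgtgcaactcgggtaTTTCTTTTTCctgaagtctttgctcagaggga

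Of the 15 tested list genes 11 had a promoter in the RefSeq table. The response element was found in 8 of the 11 (72.7%), among them Gbp2, Gbp3, Gbp5, Igtp, Irgm2 and Cxcl10, against 943 of all 27025 promoters (3.49%). The gamma-activated site was found in 5 of the 11 (45.5%), against 2288 promoters (8.47%). Cd38 had neither in its window (chr5:43868559-43868858, + strand). A match is a description of the letters and not a bound site. The list was made of interferon-induced genes, so these shares describe the list and say nothing about the members.

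The antiviral interferon genes and the MHC class I genes lay on the same side without a gene that passed, and the MHC class II genes did not. All 19 genes of MHC class I and peptide loading had a positive log2 fold change after LPS, 15 of them without overlap between the groups, where 14.3% of all tested genes were higher without overlap, with a median of 1.35. Tapbp, the tapasin that loads peptides, stood at 223 and 294 CPM in control and 745 and 481 CPM in LPS members, and H2-K1, a class I heavy chain, at 3565 and 3978 and then 5518 and 5731 CPM. Of 20 tested antiviral interferon-stimulated genes 11 were higher without overlap, again beside 14.3% of all tested genes, with a median of 1.24. The class II list had a median of -0.0049 over 10 tested genes.

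Genes of the direct LPS response were also higher without passing. Of 25 tested effectors 17 were higher without overlap, beside 14.3% of all tested genes, with a median log2 fold change of 1.28. Saa3 stood at 14.5 and 9.0 CPM in control and 1475 and 212 CPM in LPS members (log2 fold change 6.13, edgeR adjusted p = 0.0689), and Nos2, the inducible nitric oxide synthase, at 0 and 0 and then 190 and 35.3 CPM, at least 38.5-fold higher against the floor of 3 counts. A Saa3 UMI was detected in 71.4%, 20.1%, 78.4% and 69.8% of the members of LPS_1, LPS_2, SLC_1 and SLC_2 and in 55.7%, 5.20%, 38.7% and 56.4% of their shallower B cells, so that in LPS_1 and SLC_2 its detection is close to background. Il1a and Il1rn, the cytokine and the antagonist of its receptor, stood at 231 and 399 and then 3060 and 1232 CPM, and at 480 and 534 and then 2556 and 1471 CPM, while Il1b was already at 8488 and 8821 CPM in control members and at 14070 and 15970 CPM after LPS.

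The nonclassical identity list went the other way in most genes. Of its 24 tested genes 13 were lower in both LPS libraries than in both controls, against 25.9% of all tested genes, 2 were higher and none passed, with a median log2 fold change of -0.45. Cd36, a scavenger receptor for oxidised lipids, stood at 1342 and 1071 CPM in control and 431 and 571 CPM in LPS members. Cx3cr1 stood at 172 and 240 and then 153 and 65.6 CPM. In members with 3 or 4 markers Cx3cr1 overlapped between the groups, at 215 and 263 and then 238 and 77.7 CPM. Itgal at 2262 and 2793 and then 1585 and 2689 CPM and Spn at 214 and 276 and then 179 and 287 CPM overlapped between the groups. Of 15 tested classical monocyte genes 7 were higher without overlap, beside 14.3% of all tested genes, with a median of 0.71. Examples were Ly6i at 284 and 261 and then 1256 and 1644 CPM and Ly6c2 at 189.5 and 189 and then 1019 and 837 CPM. The set is mixed, and in members with 3 or 4 markers Ly6c2 stood at 167 and 52.5 and then 288 and 429 CPM.

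SLC activation plus LPS against control uses the same 2 control libraries, so its values are set beside those of LPS and are not independent of them. A single gene of 5729 passed (0.0175%): Aoah, at 14.5 and 18.0 CPM in control and 207 and 185 CPM in SLC members, a log2 fold change of 3.66 (SE 0.41, edgeR adjusted p = 0.0342). Free RNA would supply 46.1% of that SLC level, and among members with at least 3 markers the log2 fold change was 2.14 (edgeR adjusted p = 0.51). An unadjusted p under 0.05 was reached by 641 genes (11.2%), and DESeq2 called 62. Without SLC_1 no gene passed, 495 had an unadjusted p under 0.05, and Aoah had a log2 fold change of 3.52 (adjusted p = 0.116).

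The next genes by adjusted p, all at 0.0537, were above the controls in both SLC libraries and higher in SLC_1 than in SLC_2. Cd38, at 299.8 and 216 CPM, and Csf2rb2, a receptor chain for interleukin 3, at 36.2 and 27.0 CPM in control and 515 and 216 CPM in SLC members, were among them. Saa3 was at 4352 CPM in SLC_1 and 1294 CPM in SLC_2, and Ly6c2 at 3776 and 1387 CPM. Csf2rb2 is near-identical to its neighbour Csf2rb, so its reads are uncertain. On the low side Cd36 stood at 128 and 277 CPM (log2 fold change -2.64, adjusted p = 0.0831), and Fabp4, a fatty acid carrier, at 266 and 237 CPM in control and 19.0 and 51.4 CPM in SLC members (log2 fold change -3.18, adjusted p = 0.0811).

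The 2 SLC libraries differed from each other in the interferon gamma list. Its median log2 fold change from control was 1.60 over 15 genes, with 7 higher without overlap, where 19.9% of all tested genes were. Gbp2 stood at 181 CPM in SLC_1, within the control range of 165 to 216 CPM, and at 1109 CPM in SLC_2, close to the 1242 CPM of LPS_1. Gbp5 at 17.2 and 380 CPM, Ifi47 at 37.9 and 288 CPM and Cxcl9 at 10.3 and 288 CPM had the same split.

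Of 23 tested hypoxia and glycolysis genes 16 were higher in both SLC libraries than in both controls, where 19.9% of all tested genes were, with a median log2 fold change of 1.25 and no gene passing. Pgam1 stood at 174 and 177 CPM in control and 1066 and 483 CPM in SLC members, and Aldoa at 150 and 117 and then 701 and 308 CPM. The median was 0.53 without SLC_1. Lysosome and lipid genes gave 16 of 21, beside the same 19.9%, and a median of 0.89, or 0.63 without SLC_1, such as Ctsd, cathepsin D, at 20.3 and 12.0 and then 141 and 82.2 CPM.

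Identity genes had a median of -0.87 in SLC against control, with 11 of 24 lower without overlap (26.3% of all tested genes were), and of -0.23 without SLC_1. Spn at 62.0 CPM, Itgal at 629 CPM and Fcgr4 at 96.5 CPM were low in SLC_1 only, while SLC_2 held 195, 2198 and 739.5 CPM of them, beside control values of 214 and 276, 2262 and 2793, and 386 and 429 CPM.

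SLC activation plus LPS against LPS tests the activation on top of LPS, and no gene passed in edgeR or in DESeq2, while 549 of 5729 genes (9.58%) had an unadjusted p under 0.05 in edgeR. The genes with the smallest p had an adjusted p of 0.43. Ifit2, an antiviral RNA-binding protein, stood at 106 and 95.9 CPM in LPS and 5.17 and 20.5 CPM in SLC members, with a log2 fold change of -3.71. Rap1gap2, which switches off the small GTPase Rap1, stood at 230 and 213 CPM in LPS and 67.2 and 41.1 CPM in SLC members, with -1.99. On the high side Mt2, a metallothionein, stood at 43.8 and 13.6 and then 209 and 92.4 CPM, and Eno1b, an enolase, at 25.6 and 18.0 and then 105 and 61.6 CPM.

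The interferon gamma list's difference in this comparison depended on which SLC library was used. Its median log2 fold change was -1.36, with 6 of 15 genes lower without overlap, where 15.4% of all tested genes were. Without SLC_1 the median was -0.29, with 7 of its then 16 tested genes positive and 9 negative, and without SLC_2 it was -2.70. MHC class I gave -0.73, and 0.12 without SLC_1, and the antiviral genes gave -1.31, and -0.49 without SLC_1. The hypoxia and glycolysis list gave 0.98, and 0.13 without SLC_1.

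Receptors for the transmitters of sympathetic nerves and for glucocorticoids were among the lists because the study concerns nerve activity. Adrb1, the beta-1 receptor, stood at 135 and 183 CPM in control, 58.4 and 74.4 CPM in LPS and 13.8 and 216 CPM in SLC members, so that the SLC pair spanned all other libraries. Of 13 tested genes of adrenergic, cholinergic and adenosine receptors and cAMP signalling none passed, and the medians were -0.08 for LPS against control, -0.41 for SLC against control and -0.31 for SLC against LPS.

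Glucocorticoid targets gave no gene that passed among 12 tested, with 6 higher in SLC than in LPS members without overlap (17.6% of all tested genes were) and a median of 0.40. Per1, a clock gene that glucocorticoids induce, stood at 60.7 and 33.0, 29.2 and 3.40, and 67.2 and 41.1 CPM. Klf9 stood at 122 and 75.0, 32.9 and 26.4, and 93.0 and 51.4 CPM, and free RNA would supply 61.1% of its control level. Nr4a1 stood at 1536 and 1068, 895 and 793, and 806 and 544 CPM, lower in all treated libraries than in the controls, and passed in no comparison.

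To compare LPS differences with those in another kind of monocyte, members were set against Ly6c2-positive monocytes of the same lungs. These were kept barcodes outside the set with at least 2 Ly6c2 UMIs, at least 1 of Ccr2, Ms4a4c, F13a1, Chil3 and Vcan detected and fewer than 2 of the neutrophil genes Retnlg, Cxcr2, Mmp9 and Il1r2, and they numbered 183, 113, 988, 666, 592 and 1523. An edgeR fit of both sets over 7860 genes, with the library as a block, tested the difference between the 2 LPS effects. Of these genes 117 (1.49%) passed, 26 (0.331%) with the more positive effect in members and 91 (1.16%) with the more negative one. The Ly6c2-positive monocytes themselves differed between groups. Arg1 stood there at 0 and 0 CPM in control and 133 and 96.7 CPM in LPS lungs, and Ccr2 at 575 and 377 and then 189 and 414 CPM. A change in which cells met their definition and a change within cells cannot be told apart here.

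The 91 genes were mostly ones that control members already carried. In 87 of the 91 the level in control lungs was higher in members than in Ly6c2-positive monocytes, and 85 were higher after LPS in the Ly6c2-positive monocytes. Tnf, the main early inflammatory cytokine, stood at 2987 and 3522 CPM in control members and 2794 and 3491 CPM in LPS members, and at 194 and 260 and then 1739 and 1271 CPM in Ly6c2-positive monocytes. The effects differed by -2.82 (SE 0.30, edgeR adjusted p = 0.000188). The control levels enter both sides of this comparison.

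Cxcl10 had the same form: at 142 and 156 and then 700 and 1088 CPM in Ly6c2-positive monocytes, with a difference of -2.20 (SE 0.25, edgeR adjusted p = 0.000139) from the members, whose control level was near 700 CPM. Ccrl2, a receptor that presents chemerin, stood at 953 and 1410 and then 1680 and 3579 CPM in members and at 107 and 226 and then 1573 and 2330 CPM in the others, a difference of -2.58. Hcar2, the niacin and butyrate receptor, differed by -3.10, and Fth1, the ferritin heavy chain, by -1.86. Fcgr4 belonged here too, with a difference of -2.88 (SE 0.36, edgeR adjusted p = 0.000288), as its level in Ly6c2-positive monocytes went from 18.6 and 13 to 182 and 239 CPM.

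Among the 26 genes with the more positive effect in members, 25 were lower in members in control lungs. After LPS 22 of the 26 were lower in the Ly6c2-positive monocytes. Ccl5, a chemokine for T cells and monocytes, stood at 664 and 702 and then 1771 and 2498 CPM in members and at 3009 and 3799 and then 2381 and 4483 CPM in Ly6c2-positive monocytes, a difference of 1.63 (SE 0.22, edgeR adjusted p = 0.000651). Irf8, a factor of monocyte and dendritic cell fate, stood at 55.0 and 54.0 and then 40.2 and 75.8 CPM in members and at 658 and 533 and then 110 and 186 CPM in the others, a difference of 2.12. Ccnd2, a cyclin, differed by 2.31. Spn differed by 2.27 and was the exception, at 214 and 276 CPM in control members and 132 and 208 CPM in Ly6c2-positive monocytes of those lungs.

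**Figure D5:**
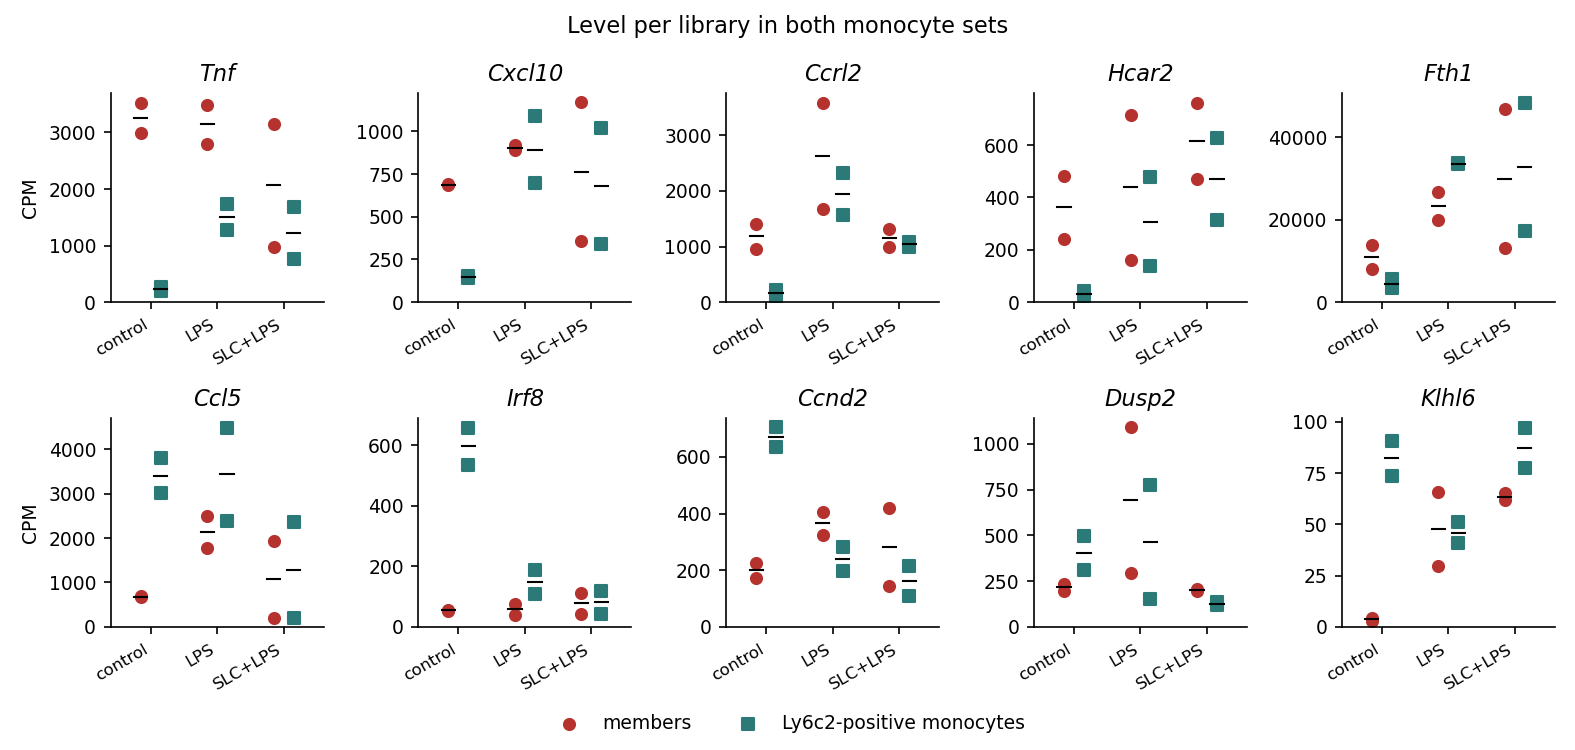
CPM (linear axes that start at 0) of the 10 genes named for the difference between LPS effects, in members (red circles) and Ly6c2-positive monocytes (green squares) of the control, LPS and SLC libraries, with short lines for the mean of 2 libraries. In members Tnf lies between 2794 and 3522 CPM in control and LPS lungs, while in Ly6c2-positive monocytes it goes from 194 and 260 to 1739 and 1271 CPM.

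Counts of genes that passed differed among the lists, which were not tested as sets. Of all 7860 genes, 1.16% passed with the more negative effect in members and 0.331% with the more positive one. Beside this, 8 of 25 LPS response effectors passed with the more negative effect, among them Acod1, Tlr2 and Clec4e. Of 16 chemokines 6 did and 1 passed in the other direction. Of 20 genes of the interferon gamma list 1 passed in each direction, Gbp4 and Cxcl10, and of 19 MHC class I genes none did. With 1.49% of all genes passing, lists of this size cannot show that these 2 differ from other genes. For SLC against LPS the same fit called no gene as different between the 2 cell sets, with 434 (5.52%) at an unadjusted p under 0.05.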

How the data were processed

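The deposited files hold UMI counts per gene and barcode for 6 lung libraries, made by the authors. The sources used here do not name the tool, and the builds GRCm39 and mm39 are named per the submitters' processing notes. Per the labels, libraries were made on BD Rhapsody and read with 150 bp paired ends. Members and gene lists were chosen with earlier results of these data known. Barcodes were filtered and members found as the report states, and member UMIs were summed per library. edgeR 4.0.16 (TMM, filterByExpr, robust quasi-likelihood fit on group, all 6 libraries) gave log2 fold changes, so these differ from ratios of CPM. Shares used exact permutation tests over mice. The alternatives were DESeq2 1.42.0, other filters, left-out libraries and stricter members. Each fit was tested on simulated data. Named genes were those that passed with at least 50 CPM, up to 10 per direction, filled to 5 by p, and up to 4 per list. Scrublet in scanpy 1.11.5 (expected rate 6%) called 1.66%, 1.38%, 0.438%, 2.14%, 0% and 0.0155% of kept barcodes, so it did not work in 3 libraries, and its calls were left in. The top 6% of Scrublet scores in each library held 13.8%, 9.21%, 20.9%, 6.15%, 6.4% and 37.2% of its members. Depth per library is in the report. Some genes are not reported here.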

Additional observations from a re-analysis of the deposited data

Results flagged for a closer look

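For 10 genes the LPS effect in members differed from that in Ly6c2-positive monocytes by the edgeR test of the difference itself. On the log2 scale the effect in members was more positive by 4.25 for Klhl6 (SE 0.62, adjusted p = 0.00141), 2.31 for Ccnd2, 2.12 for Irf8, 1.63 for Ccl5 and 1.52 for Dusp2. It was more negative for Hcar2 (-3.10), Tnf (-2.82), Ccrl2 (-2.58), Cxcl10 (-2.20) and Fth1 (-1.86). The call was lost for Irf8 without control_1 (adjusted p = 0.0632) and without LPS_2 (adjusted p = 0.0688), and for Dusp2 without control_2 (adjusted p = 0.151). The other 8 genes kept it under all 8 alternatives run. Klhl6, an adaptor of the B cell receptor pathway, was at 4.34 and 3.00 CPM in control members and at 65.7 and 29.5 CPM in LPS members, and at 90.7 and 73.7 and then 51.3 and 40.7 CPM in Ly6c2-positive monocytes.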

How the results depend on the processing

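Counts of genes past the threshold moved with the processing. For LPS against control, 13 genes passed, 54 in DESeq2, 181 with no low-count filter, 28 with only the 2 groups fitted, 8 with at least 3 markers, 22 among members without a Ly6c2 UMI, 5 without collagen-rich members (added after seeing the data) and 0 without neutrophil-marked members or without free-RNA-prone genes (417 and 230 at an unadjusted p under 0.05), and leaving out each library gave 0 to 186 (186 without LPS_1 and 10 without LPS_2, 0 and 29 without control_1 and control_2, 37 and 62 without SLC_1 and SLC_2). For SLC against control, 1 gene passed, 62 in DESeq2, 128 with no filter, 3 with 2 groups, 10 with the stricter barcode filter, 0 with at least 3 markers (247 under 0.05), 2 among members without Ly6c2, 2 without the top 6% of doublet scores, 0 without neutrophil-marked members or free-RNA-prone genes (568 and 380 under 0.05), 6 without collagen-rich members, and 0 to 91 with a library left out (0 without control_1 or SLC_1, 91 without LPS_1). For SLC against LPS, 0 passed, 95 with no filter, 3 among members without Ly6c2, and 0 to 295 with a library left out (295 without LPS_1, 28 without SLC_2, else 0). The causes were not tested. Replicate numbers are shared across groups but do not pair the mice (correlations of deviations 0.129, 0.0453 and 0.136), and a replicate block gave 55, 49 and 0 genes.

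The difference between LPS effects in members and Ly6c2-positive monocytes passed in 117 genes, in 70 to 282 with a library left out, and for SLC against LPS in 0 genes, 13 with no filter and 1 to 169 with a library left out. The share in LPS minus control reversed to -0.976 percentage points without LPS_2 and ranged up to 6.20. SLC minus control was -2.03 points with the stricter filter and -0.589 to -1.43 with a library left out, and SLC minus LPS ranged from -0.032 to -7.21. No gene that passed changed sign, while some named genes that did not pass did, such as Fn1 in SLC against LPS (2.07, lowest -0.46), and each of the 13 lost its call in 2 to 7 alternatives. SLC_2 with 43 members limits every SLC value.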

Other observations

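A few genes outside the comparisons above stood apart in single libraries or in all treated ones. Il10, the anti-inflammatory cytokine, stood at 73.8, 75.0, 69.4, 474, 46.5 and 41.1 CPM in members, high in LPS_2 alone, and Plac8 at 1730, 3192, 2983, 5825, 408 and 2989 CPM, low in SLC_1. Fcgr2b, the inhibitory Fc receptor, stood at 234, 282, 588, 294, 1358 and 955 CPM. All 4 treated libraries lay above the controls, but LPS_2 at 294 CPM was close to the 282 CPM of control_2. The log2 fold change for SLC against control was 2.20 (edgeR adjusted p = 0.103). Adora2b, the low-affinity adenosine receptor, stood at 13, 12.0, 40.2, 86.5, 29.3 and 71.9 CPM, also above both controls in every treated library. Of 20 cell cycle genes 5 were abundant enough to be tested and none passed in any comparison. Pcna stood at 363, 405, 358, 379, 212 and 226 CPM in members, and Mki67, a marker of dividing cells, at 27.5 to 89.6 CPM.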
